A study of Oryza sativa with 4 samples.

Results

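A set of 90 rice genes each had a probe well above background on 3 of 4 root hair arrays. On the remaining array, which lay on slide 2, that probe was at least 8-fold lower and not well above background. RNA came from root hairs brushed off frozen seminal roots of seedlings at 3 days after germination, grown on medium without further treatment, and each RNA was hybridised to 1 array in 1 colour. The labels give DJ root hair1, 2 and 3 the cultivar Don-gin (n = 3) and LJ root hair the cultivar Lon-gin (n = 1), while the study describes its replicates as a single cultivar. Per the file headers, DJ root hair1 and DJ root hair2 lay on slide 1, and DJ root hair3 and LJ root hair on slide 2. The label Lon-gin rests on 1 array, so its cultivar and that array cannot be told apart, and the sources used here do not say how many seedlings were pooled for each sample.

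Members were chosen by measured values. A gene with a Rice Annotation Project (RAP) identifier entered if one of its probes was not well above background by the scanner software on DJ root hair3 or on LJ root hair, was well above background on the other 3 arrays, and lay at least 3 below each of them. The unit is log2 of the background-corrected spot signal, brought to the same 75th percentile on every array and called the scaled log2 signal here, so that a gap of 3 is an 8-fold difference. The gap is the distance from the missing array to the lowest of the other 3. Of 29689 RAP genes on the array, 54 genes (60 probes) were missing from DJ root hair3 and 36 genes (41 probes) from LJ root hair, and 0 from both under the rule. Missing here means not well above background, which is not the same as no signal. When detection used the scanner's test for positive and significant signal, only 33 of the 54 and 10 of the 36 genes remained. The 54 genes made up 0.267% of the 20201 that the remaining arrays saw, and the 60 probes 0.202% of 29652. For LJ root hair the shares were 0.178% of 20181 genes and 0.138% of 29623 probes. Genes and probes that the other 3 arrays saw are called testable below. Since the rule used these values, they are given as a description, without a test.

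Root hairs are long, tube-shaped outgrowths of single root epidermal cells, through which a plant takes up water and nutrients. An array probe reads 1 short stretch of a transcript, and a spot not well above background means that labelled RNA matching that stretch was not measured clearly above the detection limit. In a bulk sample, fewer cells that express a gene and less of its RNA per cell cannot be told apart. The digits after Os in a RAP identifier give the chromosome, and the digits after g rise along it, so neighbouring identifiers stand for neighbouring genes. The tables used here pair none of the members with a gene name or function, and members are therefore called by their identifiers. None of the 90 members is in the study's list of genes preferential to root hairs (0 shared genes), a list that holds 1.38% of the RAP genes on the array. A count of 0 says little about a set of this size. The study also chose that list by signal on these arrays, so the count supports nothing. One root hair gene was read, Os10g0578200, the cellulose synthase-like gene OsCSLD1 named in the study, which acts in root hair growth. Its scaled log2 signal was 14.22 on DJ root hair1, 14.03 on DJ root hair2, 14.90 on DJ root hair3 and 14.44 on LJ root hair. The study chose this gene as root hair-preferential from these arrays, so a high signal does not check the tissue.

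The arrays differed in overall brightness. Before scaling, slide 1 had 75th percentiles of 10.59 and 10.73 and slide 2 of 11.49 and 11.80, while the share of probes well above background ranged from 71.4% to 88.5%. The lowest scaled signal called well above background was 4.06 for DJ root hair1, 3.90 for DJ root hair2, 2.50 for DJ root hair3 and 2.45 for LJ root hair. The E1A control spots, which read RNA spiked in during labelling, reached 237573 and 234168 for the brightest probe of slide 1, against 22.8 and 22.9 for slide 2. The slides thus differed in detection limit and in spike-in signal, and the part of either in the gene sets was not tested. The 2 arrays compared with each other below lie on the same slide, and the median range of the 3 other arrays over all testable probes was 0.70 for DJ root hair3 and 0.68 for LJ root hair.

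The same rule picked out a different kind of probe on slide 1. It took 51 probes (0.164%) of 36 genes (0.169%) on DJ root hair1 and 6 probes (0.02%) of 6 genes (0.0293%) on DJ root hair2. On DJ root hair1 the median gap was 3.44 and the widest 5.17, with 1 probe at 5 or more. On DJ root hair2 the median was 3.46, and 1 probe, of Os03g0220300, stood apart at 9.02. On DJ root hair3 the median gap was 5.46, the widest 10.42, and 39 of 60 probes reached 5. On LJ root hair the median was 4.58, the widest 8.59, and 16 of 41 probes reached 5. The other 3 arrays also lay closer together for the slide 2 sets. Their range was within 1 for 39 of 60 probes on DJ root hair3 and 32 of 41 on LJ root hair, against 4 of 51 on DJ root hair1 and 0 of 6 on DJ root hair2. Probes of 1 gene are counted singly here and are not separate observations. On DJ root hair1 many belong to Os09g0538000, with ranges of 3.56 to 4.26. The higher detection limit of slide 1 narrows the gap that can be measured there, and this was not corrected for.

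**Figure D1:**
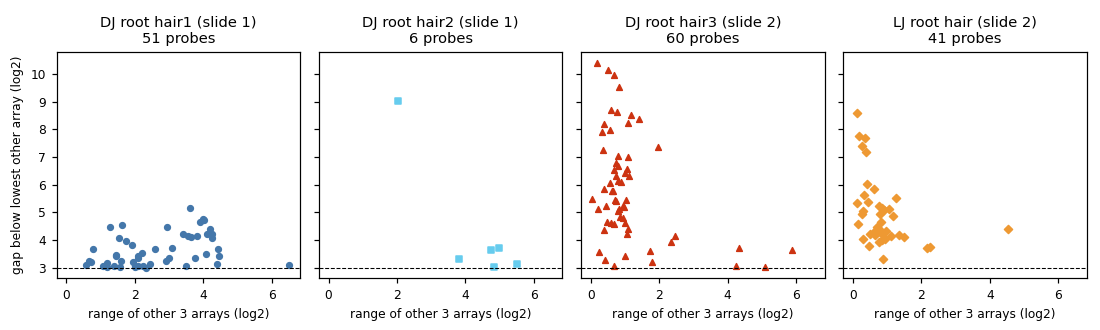
Each point is a probe that met the rule on the array named above the panel; x gives the range of the other 3 arrays and y the gap to the lowest of them, both in scaled log2 units, with a dashed line at the gap of 3. On DJ root hair3 and LJ root hair most points stand at a range within 1 and gaps reach 10.42 and 8.59, while on DJ root hair1 gaps reach 5.17 with wider ranges.

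A gap of 3 was common among the probes that only a slide 2 array failed to see. Of 79 probes not well above background on DJ root hair3 but so on the other 3 arrays, 75.9% passed the gap, and of 50 on LJ root hair 82% did. The corresponding shares were 3.4% of 1498 on DJ root hair1 and 1.52% of 395 on DJ root hair2. The detection limits, 4.06 and 3.90 on slide 1 against 2.50 and 2.45 on slide 2, help to set these shares apart. A probe lost on a slide 2 array had to pass the higher limits of both slide 1 arrays, and one lost on a slide 1 array only 1 of them. The shares are therefore not comparable between slides. Brighter probes that were lower by as much could stay well above background and so miss the rule, which favours dim probes. The median level of the members over the other 3 arrays was 7.06 for DJ root hair3 and 6.80 for LJ root hair, against 9.91 and 9.90 over all testable probes, and 5 and 1 member probes lay above those medians. On the missing array the values ran from 0.26 to 2.61 (median 0.59) on DJ root hair3 and from 0.15 to 2.77 (median 1.62) on LJ root hair.

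The scanner values show how low these spots were. The raw median signal of the member spots was 26 to 40 on DJ root hair3 and 30 to 42 on LJ root hair, where the local background had medians of 21 and 22. On the other 3 arrays the lowest raw signal of a member spot was 49 and 52. Every member probe had 1 spot. None of these spots carried an outlier or saturation mark on the missing array (0 of 60 and 0 of 41), and on the other arrays 0 and 1 carried an outlier mark. They were spread from row 23 to 517 and from row 9 to 528 of 532 rows, and 2 and 0 of them had another member spot beside them. Of the spots next to members, 82.8% on DJ root hair3 and 89.8% on LJ root hair were well above background, against 84.5% and 87.5% of all spots on those arrays.

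**Figure D2:**
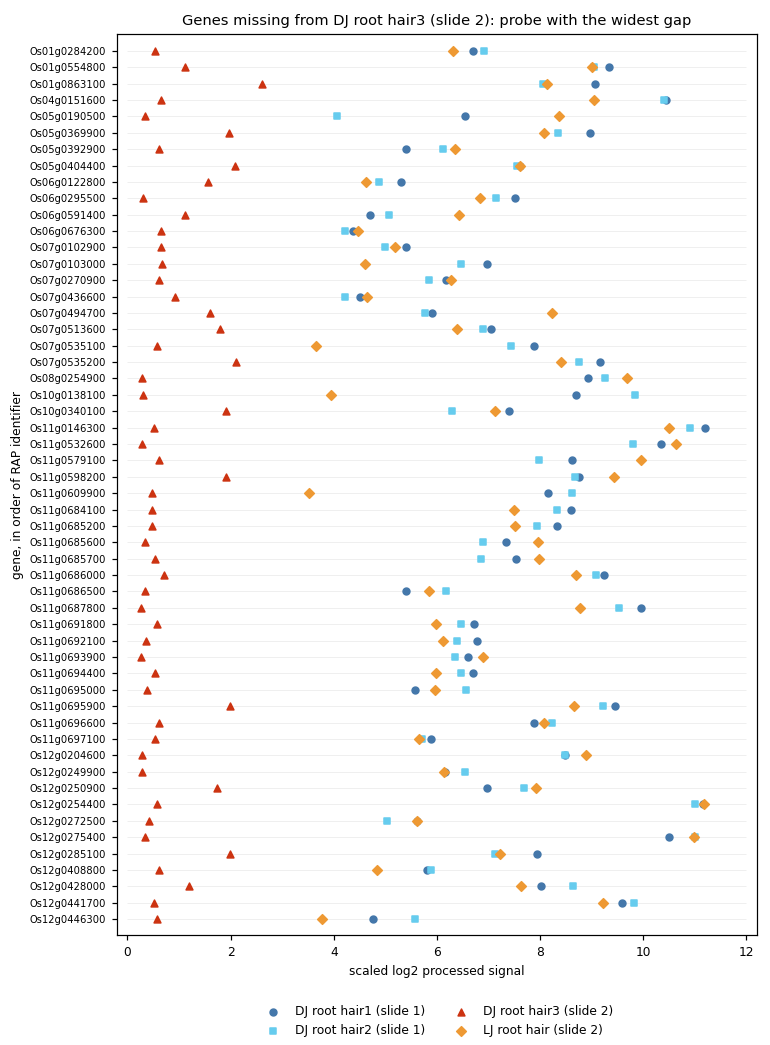
Scaled log2 signal (x) of the 54 genes missing from DJ root hair3, 1 row per gene in order of identifier, with a marker for each of the 4 arrays and the probe with the widest gap shown. The DJ root hair3 triangles lie between 0.26 and 2.61 and every other marker lies above them, with LJ root hair near the 2 slide 1 arrays for most genes.

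The widest gap on DJ root hair3 belonged to Os12g0254400. Its scaled log2 signal was 11.16, 11.01 and 11.18 on DJ root hair1, DJ root hair2 and LJ root hair, and 0.58 on DJ root hair3. The 3 arrays that saw it differed by less than 1 and had a mean of 11.12 ± 0.09 (SD, n = 3). Against the lowest signal called well above background on DJ root hair3 (2.50), in place of its own value, the signal was 391-fold lower. That limit is not a strict bound, since some spots not well above background read higher, up to 2.61 among the members. In the values the authors deposited, the drop from the mean of the other arrays was 5.90.

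Os12g0275400 gave 10.50, 11.01 and 10.99 on the arrays that saw it and 0.34 on DJ root hair3, 322-fold lower against that limit. Os11g0146300 gave 11.19, 10.91 and 10.49 against 0.51, 329-fold lower on the same basis. Os11g0532600 gave 10.35, 9.80 and 10.64 against 0.28, 216-fold lower on the same basis. For these genes LJ root hair stood with slide 1, and its distance from the mean of the slide 1 arrays was within 1.

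Gaps of 7.26 to 8.71 followed for Os12g0441700, Os08g0254900, Os11g0687800, Os04g0151600, Os12g0204600, Os11g0686000, Os01g0554800, Os11g0579100 and Os11g0696600, and Os11g0685200 and Os11g0684100 completed the 15 widest at 7.04 and 7.01. Spots not well above background have no reliable order among themselves, so the order of these gaps partly follows values below the detection limit. By the folds against that limit, Os11g0695900 (97.2-fold lower), Os11g0598200 (87.7-fold) and Os07g0535200 (77.1-fold) stood above Os11g0684100 (49.6-fold), Os11g0696600 (47.0-fold) and Os11g0685200 (42.8-fold). In Os04g0151600 the arrays that saw it read 10.44, 10.41 and 9.04 and DJ root hair3 read 0.65. In Os11g0579100 they read 8.61, 7.97 and 9.95 and DJ root hair3 read 0.62. These 2 genes had wider spreads among the arrays that saw them (SD 0.80 and 1.01, n = 3), both smaller than the gap.

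At the other end, the members nearest to the threshold were Os11g0609900 (gap 3.04), Os06g0122800 (3.07) and Os07g0535100 (3.08). Just outside it were Os06g0141400 (2.95), Os05g0414400 (2.88) and Os06g0271500 (2.88). Os11g0609900 read 8.16, 8.61, 0.48 and 3.52, and Os07g0535100 read 7.88, 7.44, 0.57 and 3.65, in the order DJ root hair1, 2, 3 and LJ root hair. Both were thus low on LJ root hair too, which is what set their narrow gaps. Os06g0271500 showed this more fully, at 12.07, 12.08, 0.33 and 3.21 in the same order.

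For most members the second slide 2 array matched slide 1. LJ root hair lay within 1 of the mean of the slide 1 arrays for 43 of the 54 genes missing from DJ root hair3, more than 1 below for 7 and more than 1 above for 4. DJ root hair3 lay within 1 for 32 of the 36 genes missing from LJ root hair, below for 0 and above for 4. The same share over all testable genes was not counted. The median range of the other 3 arrays was 0.80 and 0.77 for the member probes, against 0.70 and 0.68 over all testable probes. Members thus agreed no more closely than other probes, and the rule itself required this second array to see them. Genes not well above background on both slide 2 arrays, with a gap of at least 3 to both slide 1 arrays, numbered 9 of 20246 (0.0445%). The reverse, not well above background on both slide 1 arrays only, held for 220 of 24643 genes (0.893%). Exceptions among the members included Os10g0138100, at 8.69 and 9.84 on slide 1 and 3.95 on LJ root hair, and Os02g0510400, missing from LJ root hair, at 6.33 and 5.85 on slide 1 and 10.37 on DJ root hair3. The DJ root hair3 spot of Os02g0510400 carried an outlier mark, with a raw median signal of 928 against a local background of 3222, so its 10.37 is not a reliable level.

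**Figure D3:**
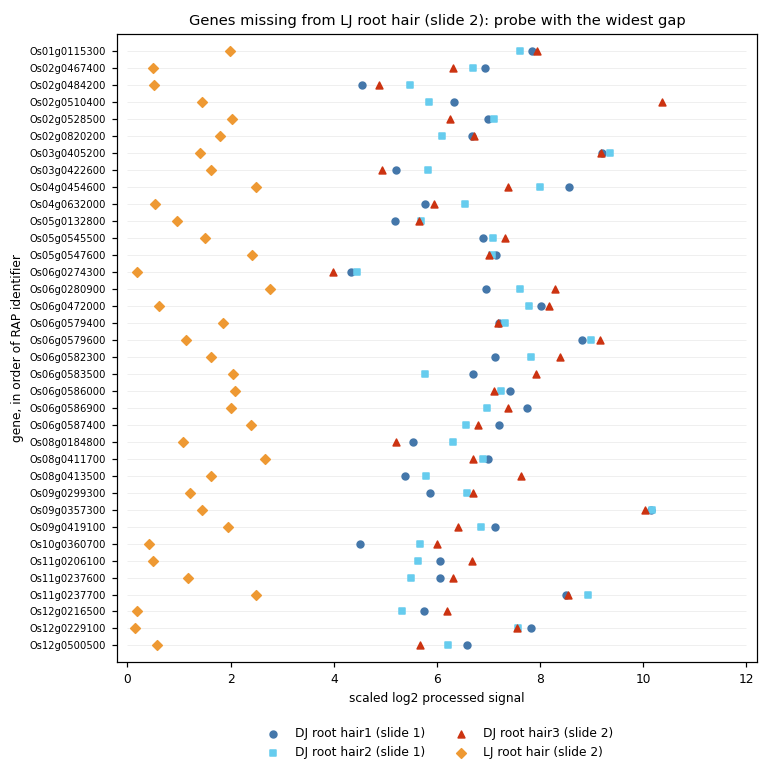
Scaled log2 signal (x) of the 36 genes missing from LJ root hair, 1 row per gene in order of identifier, with a marker for each of the 4 arrays and the probe with the widest gap shown. The LJ root hair diamonds lie between 0.15 and 2.77, below all other markers of each row.

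Among the genes missing from LJ root hair, Os09g0357300 had the widest gap. It read 10.14 and 10.16 on slide 1, 10.04 on DJ root hair3 and 1.45 on LJ root hair. Against the detection limit of LJ root hair, again not a strict bound, it was 202-fold lower there. The 3 Don-gin-labelled arrays had a mean of 10.11 ± 0.06 (SD, n = 3).

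Os03g0405200 read 9.20, 9.35 and 9.18 on the Don-gin-labelled arrays and 1.41 on LJ root hair, 111-fold lower against that limit. Os06g0579600 read 8.82, 8.98 and 9.16 against 1.14, 92.8-fold lower on the same basis. Os12g0229100 read 7.82, 7.58 and 7.55 against 0.15, 36.7-fold lower, the fold being smaller because the gene was dimmer. In each of these the Don-gin-labelled arrays agree within 0.4, while LJ root hair was not well above background.

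Os06g0472000 and Os11g0237700 had gaps of 7.17 and 6.02, but against the detection limit their order was the reverse, at 46.4-fold and 71.6-fold lower. Os02g0467400, Os01g0115300, Os06g0582300, Os05g0545500, Os06g0579400, Os04g0632000, Os12g0216500, Os11g0206100 and Os12g0500500 followed with 5.83 down to 5.10. The members nearest to the threshold were Os03g0422600 (3.31), Os06g0583500 (3.71) and Os08g0413500 (3.76). Outside it came Os11g0198900 (2.41), Os08g0202300 (2.40) and Os12g0515800 (2.35), so no gene of this set lay between 2.41 and 3.31.

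The members were not spread evenly over the chromosomes. Of the 54 genes missing from DJ root hair3, 20 (37%) lay on chromosome 11, which holds 5.33% of the testable genes, and 11 (20.4%) on chromosome 12, which holds 5.55%. Chromosome 7, with 7.9%, held 8 (14.8%). Chromosomes 2, 3 and 9, with 11.7%, 13.1% and 5.37% of the testable genes, held 0 of them. Of the 36 missing from LJ root hair, 10 (27.8%) lay on chromosome 6, with 7.91% of the testable genes. The 5 (13.9%) on chromosome 2 were near its share of 11.8%. Chromosome 7, with 7.87%, held 0, but 5 of its genes were at least 3 lower on LJ root hair and still well above background. The share of testable genes that were members was 1.86% on chromosome 11 and 0.98% on chromosome 12 for DJ root hair3, and 0.626% on chromosome 6 for LJ root hair.

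**Figure D4:**
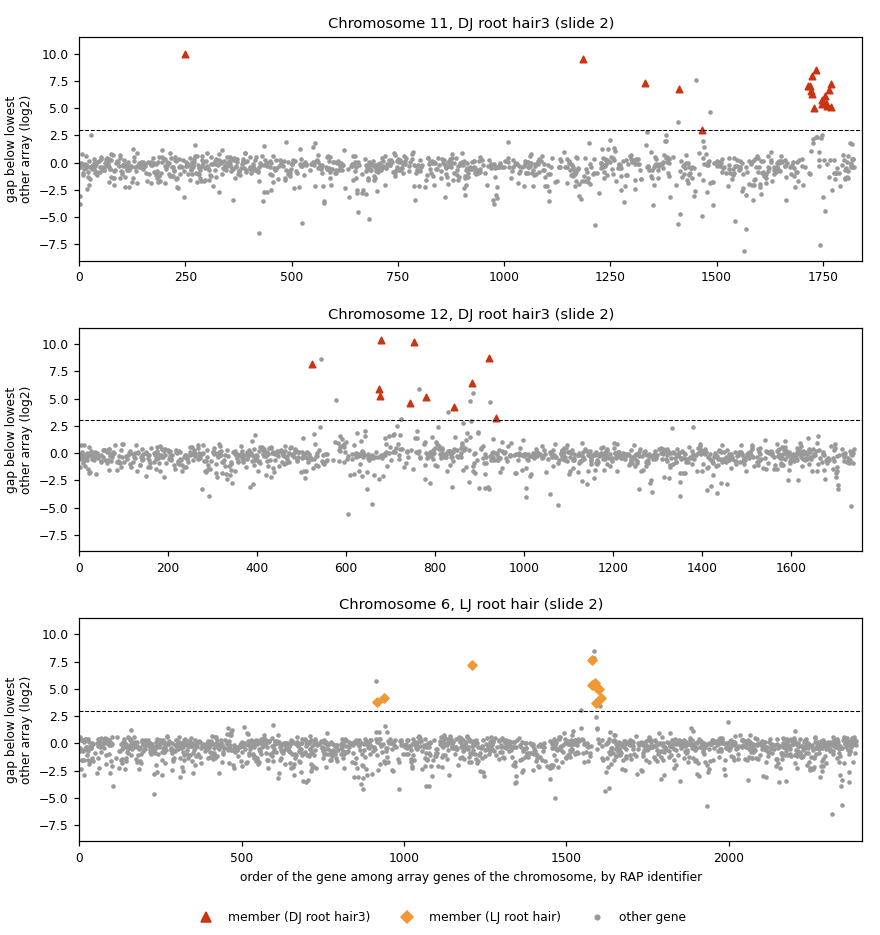
Gap to the lowest other array (y, scaled log2, largest over the probes of a gene) against the order of the gene among all array genes of its chromosome (x), for genes well above background on the other 3 arrays. Members stand above the dashed line at 3 and cluster at the far end of chromosome 11, in the middle of chromosome 12 and at 1 place on chromosome 6; grey points above the line were still well above background.

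Many members were neighbours. With at most 5 array genes between 2 members, 22 of the 54 genes missing from DJ root hair3 fell into 5 runs, and 9 of the 36 missing from LJ root hair into 4 runs. The longest runs lay on chromosome 11. One held 7 members from Os11g0684100 to Os11g0687800, among 18 array genes, and the next held 8 from Os11g0691800 to Os11g0697100, among 24.

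The members of the first chromosome 11 run were Os11g0684100, Os11g0685200, Os11g0685600, Os11g0685700, Os11g0686000, Os11g0686500 and Os11g0687800. Both probes of Os11g0687800 met the rule, the brighter at 9.96, 9.52 and 8.78 on the other arrays and 0.26 on DJ root hair3. Both probes of Os11g0684100 did so as well, one at 8.59, 8.33 and 7.50 against 0.48 and one at 6.31, 5.43 and 5.80 against 0.59. The second run held Os11g0691800, Os11g0692100, Os11g0693900, Os11g0694400, Os11g0695000, Os11g0695900, Os11g0696600 and Os11g0697100. Os11g0695900 was its brightest member, at 9.46, 9.21 and 8.65 against 1.98.

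The loss was not continuous along this stretch. From Os11g0684100 to Os11g0697100 the array holds 55 genes, 34 of them testable, and 15 (44.1%) were members. Of the 19 testable genes that were not, 5 had gaps between 2 and 3, 2 between 1 and 2, and 12 under 1. The 5 were Os11g0686400, Os11g0687900, Os11g0689000, Os11g0691700 and Os11g0692000, for example Os11g0687900 at 7.28, 6.28, 3.92 and 7.99 in the order DJ root hair1, 2, 3 and LJ root hair. The array's systematic name for the probe of Os11g0686400 is Os04t0682600-01, of chromosome 4, so the gene it reads is uncertain. Others between them kept full signal, as Os11g0693800 did at 16.39, 16.05, 15.66 and 15.93 and Os11g0689400 at 11.37, 11.78, 11.31 and 10.97. Os11g0691100 was brightest on DJ root hair3, at 15.19 against 11.20, 7.60 and 9.93. These neighbours, and all genes below that stayed well above background, were picked out after their values were seen.

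Some of these neighbours share sequence sources, so they are not separate observations. Os11g0691800, Os11g0692100 and Os11g0694400 have probes drawn from 1 expressed sequence tag, CI489777, and Os11g0685600 and Os11g0685700 share another, CI123966. A tag of Os11g0686000, AU068062, is also the source of the only probe of Os01g0554800 on chromosome 1. Their values were close, 9.24, 9.08, 0.70 and 8.69 for Os11g0686000 and 9.33, 9.05, 1.11 and 9.01 for Os01g0554800. Signal from near-identical genes cannot be separated by such probes.

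On chromosome 12 all 11 members missing from DJ root hair3 lay between Os12g0204600 and Os12g0446300. A run of 3, Os12g0249900, Os12g0250900 and Os12g0254400, spanned 6 array genes. Between the last 2 of them Os12g0252000 kept its signal at 13.97, 13.82, 13.62 and 13.48. The others, Os12g0272500, Os12g0275400, Os12g0285100, Os12g0408800, Os12g0428000, Os12g0441700 and Os12g0446300, stood farther apart. The remaining runs on DJ root hair3 were pairs of adjacent genes on chromosome 7, Os07g0102900 with Os07g0103000 and Os07g0535100 with Os07g0535200.

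On chromosome 6 the genes missing from LJ root hair formed 3 runs close together. These were Os06g0579400 with Os06g0579600, Os06g0582300 with Os06g0583500, and Os06g0586000, Os06g0586900 and Os06g0587400. Os11g0237600 and Os11g0237700 on chromosome 11 formed the other run. Over the 27 array genes from Os06g0579400 to Os06g0587400, 7 of 17 testable genes (41.2%) were members.

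Several of the brightest genes of this chromosome 6 stretch were lower on LJ root hair by as much, yet still well above background. Os06g0580100 read 15.57, 15.26 and 15.93 on the Don-gin-labelled arrays and 7.49 on LJ root hair. Os06g0581000 read 14.61, 15.31 and 15.13 against 6.81, and Os06g0581300 read 14.31, 13.89 and 13.94 against 6.19. With these, all 6 testable genes from Os06g0579400 to Os06g0582300 had a probe at least 3 lower on LJ root hair. This stretch was marked out after its values were seen. Beyond it Os06g0584200 differed by less than 1 among the arrays, at 9.34, 9.34, 9.26 and 9.78. Os06g0580000, inside the stretch, was well above background on LJ root hair alone, at 4.79.

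Genes that were lower but still seen also lay near members elsewhere. Apart from the members, 22 of the 20201 testable genes on DJ root hair3 and 44 of 20181 on LJ root hair were at least 3 lower than on each other array yet well above background. Such genes were not counted for the slide 1 arrays, and how often any testable gene lies near a member was not counted. Counted with the members, 8 of the 22 and 19 of the 44 fell into runs that held a member, and the members in runs then numbered 28 of 54 and 17 of 36. On LJ root hair these included 4 genes around Os05g0547600 (Os05g0546800, Os05g0547100, Os05g0547700 and Os05g0548300), Os02g0467200 and Os02g0467300 beside Os02g0467400, and 4 genes around Os08g0411700 and Os08g0413500. For example, Os05g0546800 read 12.91, 12.91 and 12.44 against 7.75, and Os02g0467200 read 10.51, 11.24 and 11.03 against 6.31. On DJ root hair3 they included Os12g0428200 beside Os12g0428000, at 11.36, 11.01 and 10.89 against 5.36, and Os12g0442800 near Os12g0441700, at 13.71, 13.47 and 13.39 against 8.70.

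Probe annotation placed some members away from the gene in their probe name. The array's systematic name assigned the probe of Os01g0284200, named for chromosome 1, to Os12g0425500 on chromosome 12. The separate probe of Os12g0425500 was itself lower on DJ root hair3, at 8.28, 8.47, 2.60 and 7.34 in the order DJ root hair1, 2, 3 and LJ root hair, beside 6.70, 6.92, 0.53 and 6.31 for Os01g0284200. The probe of Os10g0340100 was assigned in the same way to Os06g0541132, and a probe of Os04g0454600 to Os04g0455401. Within the second chromosome 11 run, the probes of Os11g0691800 were assigned to Os11g0692100 and Os11g0694400, and that of Os11g0692100 to Os11g0694400. All these members are uncertain as to the gene they read.

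Most members rest on a single probe. Of the genes missing from DJ root hair3, 37 had 1 probe and 17 more than 1, and in 5 of the 17 all probes met the rule. The other 12 had 20 further probes, of which 14 were well above background on DJ root hair3, in 9 genes, and in 3 of these genes a probe also lay within 1 of the lowest other array. Of the genes missing from LJ root hair, 26 had 1 probe and 10 more than 1, in 2 of which all probes met the rule. The other 8 had 12 further probes, of which 8 were well above background on LJ root hair, in 6 genes, and 4 genes had one within 1 of the lowest other array.

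In 7 members, then, 1 probe was lost while another kept its level, meaning within 1 of the lowest other array. One of the 7 is Os04g0454600, whose lost probe carries another locus name. For Os08g0254900, a probe across the coding region and the 3' untranslated region (transcript 01 in the array's naming) read 8.92, 9.26, 0.28 and 9.69, while a probe in an untranslated region of transcript 02 read 10.57, 11.09, 11.01 and 10.55, in the order DJ root hair1, 2, 3 and LJ root hair. For Os12g0408800 the lost probe read 5.81, 5.89, 0.61 and 4.83, and one of 2 kept probes, for another transcript, read 6.79, 7.06, 6.70 and 7.27. For Os11g0598200 the lost probe read 8.76, 8.68, 1.90 and 9.43 and the kept one 7.15, 6.81, 6.04 and 7.01. Within each of these genes DJ root hair3 was thus low for 1 probe and near the other arrays for another.

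The same was seen on LJ root hair. For Os06g0472000 the lost probe read 8.01, 7.78, 8.17 and 0.61, and the probe for transcript 02 read 9.14, 9.03, 8.17 and 7.88. For Os05g0545500 the lost probe read 6.89, 7.08, 7.32 and 1.51, and the other 9.16, 9.11, 8.33 and 8.78. In Os08g0184800 a lost probe at 5.54, 6.31, 5.21 and 1.07 stood beside 2 probes that were lower but still seen (LJ root hair 3.45 and 3.64) and another that kept its level, at 7.62, 7.41, 7.70 and 7.67. In Os04g0454600 the lost probe carries another locus name. The 2 further probes with that name were low on LJ root hair too, at 5.22, 3.92, 5.25 and 0.33 and at 4.45, 3.88, 3.83 and 0.85. Both were not well above background on DJ root hair2 either. The kept probe, which does not carry that name, read between 8.74 and 9.57 on all 4 arrays.

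In other members the further probes were also lower. In Os05g0404400, whose lost probe read 7.60, 7.56, 2.08 and 7.60, 2 more probes read 2.90 and 2.76 on DJ root hair3 and between 7.19 and 7.55 elsewhere. In Os07g0535200 the second probe read 8.88, 8.40, 3.58 and 8.18, and in Os12g0428000 it read 7.61, 8.08, 3.74 and 7.52. In Os12g0285100, 3 further probes were lower on DJ root hair3 by gaps of 2.19 to 2.27. In Os06g0295500 both further probes were lower, by gaps of 1.11 and 3.47. In Os07g0270900 the lost probe read 6.18, 5.84, 0.62 and 6.28 and the other 8.14, 7.97, 6.87 and 8.45. On LJ root hair the further probe of Os02g0467400 was lower by a gap of 2.51 and that of Os09g0419100 by 2.71. In these genes more than 1 probe was lower than on the other arrays, with some signal left. The positions of the probes were not analysed here, and probes of 1 gene may read the same stretch.

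Os05g0190500 was uneven among the arrays that saw it. Its member probe read 6.54, 4.06, 0.34 and 8.37, and on 4 further probes LJ root hair read 6.86 to 8.34. Neither DJ root hair2 nor DJ root hair3 was well above background on any of these, and DJ root hair1 was so only on the probe of AK060968, at 4.45. The further probes thus set LJ root hair apart, and not DJ root hair3. For the probe that met the rule the 3 other arrays differed by more than 4, as they did for Os07g0535100, Os10g0138100, Os11g0609900 and Os02g0510400. In Os05g0190500 LJ root hair was the highest of the 3, and Os07g0494700 likewise read 5.90 and 5.77 on slide 1 and 8.23 on LJ root hair.

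**Figure D5:**
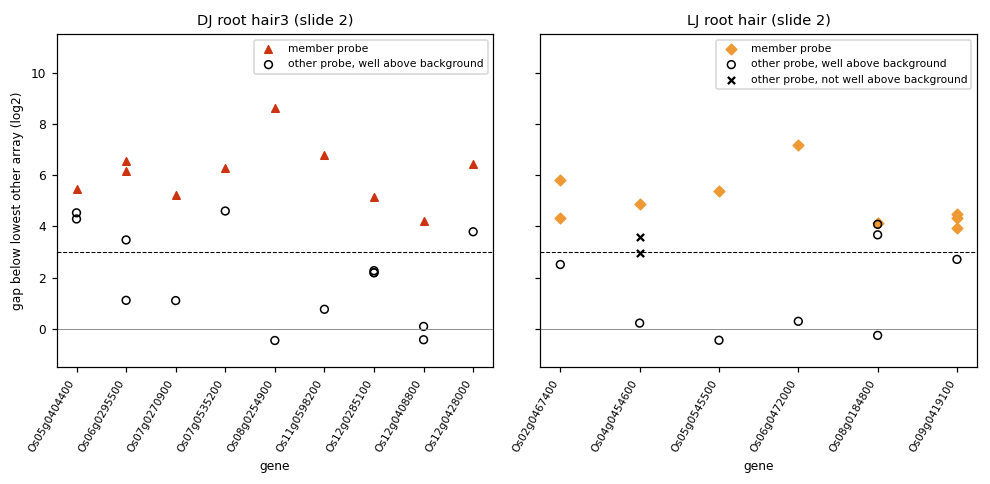
Gap to the lowest other array (y, scaled log2) for the probes of the 9 members missing from DJ root hair3 and the 6 missing from LJ root hair that had a further probe well above background on that array (x). Filled markers are the probes that met the rule, open circles the further probes well above background and crosses those that were not; circles near 0, as in Os08g0254900 and Os06g0472000, mark probes that kept their level.

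By the kind of probe, the members leaned away from the standard design. Probes confined to an untranslated region made up 11.7% of member probes on DJ root hair3 and 17.1% on LJ root hair, against 2.63% of testable probes for each. Probes across the coding region and the 3' untranslated region made up 51.7% and 56.1%, against 76.6%. Probes that the array design names COMBINER made up 16.7% on DJ root hair3 and 2.44% on LJ root hair, against 4.75% and 4.72%. Those named COMBINER_EST made up 20% and 24.4%, against 12.8%. The chromosome 11 runs held many of the COMBINER and COMBINER_EST probes, several from shared tags, so these shares do not count separate genes.

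The 14 members missing from DJ root hair3 not covered by the naming rule had gaps of 3.20 to 6.11, and include Os01g0284200, Os10g0138100, Os10g0340100, Os05g0190500, Os12g0272500 and Os12g0446300 described above. The others were Os01g0863100, Os05g0369900, Os05g0392900, Os06g0591400, Os06g0676300, Os07g0436600, Os07g0494700 and Os07g0513600. Both probes of Os05g0392900, drawn from 1 tag, met the rule. The 11 such members missing from LJ root hair had gaps of 3.80 to 4.66. They were Os02g0484200, Os02g0510400, Os02g0528500, Os02g0820200, Os05g0132800, Os05g0547600, Os06g0274300, Os06g0280900, Os08g0411700, Os09g0299300 and Os10g0360700.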

How the data were processed

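Root hair RNA of rice was measured on 4 one-colour (Cy3) Agilent arrays. The deposited intensity values and 0 or 1 flags were made by the authors with Agilent Feature Extraction (11.5.1.1 per the file headers, 9.1 per the submitters' processing notes), without normalization between arrays. The authors also deposited normalized log2 values, by a method that no source used here names; they rank probes as the median spot signal does (Spearman 1.0000), and their medians (7.59 and 7.59, 8.39 and 8.39) differ by slide, so they served as an alternative only.

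Control spots were removed, leaving 43734 spots of 42477 probes, 41889 of them named with a RAP gene. The log2 processed signal was averaged over the spots of a probe, and each array was shifted to a common 75th percentile (11.15). A probe was lost where no spot, and seen where every spot, was well above background. Folds against the detection limit used the lowest signal well above background on the missing array, or the probe's own if higher. They are not strict bounds. The values were not tested across groups, since they chose the members; the number of arrays limits precision.

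Members and lists were chosen with earlier results of these data known. Genes named were the 15 widest gaps per array, run members, members with a further probe seen on the missing array, and the 3 nearest genes on each side of the gap. A grouping by annotated function and the markers of other root tissues could not be applied, as no annotation of RAP genes was at hand; only OsCSLD1 was matched. The share of RNA from other cells was thus not measured. Alternatives were other scalings, normexp with an offset of 50 on the median signal (no mean signal is used here), the deposited log2 values, other detection rules and gaps, and leaving out each array. The rule was tested on simulated data. Of the series table, 0 columns of per-sample values were left unused. Python 3.11.15, numpy 2.4.6, pandas 2.3.3, matplotlib 3.10.9, R 4.3.3 and limma 3.58.1 were used.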

Additional observations from a re-analysis of the deposited data

How the results depend on the processing

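The counts of 54 genes missing from DJ root hair3 and 36 from LJ root hair stayed within 1.5 times under other percentile scalings, no scaling, quantile normalization, removal of outlier spots and gaps of 2 or 4. They moved to 4 and 1 under normexp with quantile normalization, and to 14 and 4 with the authors' deposited log2 values. With no detection rule they moved to 85 and 82, a change that can only add genes, so that all 54 and 36 members had to remain. With the scanner's test for positive and significant signal the LJ root hair count moved to 12, with 10 of the 36 members among them, and the DJ root hair3 count was 40, with 33 of the 54. Leaving out an array gave 61 to 70 genes for DJ root hair3 and 37 to 47 for LJ root hair. This removes a condition from the rule, so it too could only add genes. The median drop of 6.04 on DJ root hair3 became 5.47 under quantile normalization, 1.34 under normexp and 2.28 in the deposited values, and 5.98 to 6.22 without an array. That of 5.03 on LJ root hair became 1.15 under normexp, 2.08 in the deposited values, and 5.03 to 5.16 without an array. Normexp adds an offset of 50 to every spot, and the deposited values follow the uncorrected spot signal in rank; the cause of the other changes was not tested. Of the drops of the 65 named members under the alternatives, 217 moved by less than the SD of the other arrays and 173 by more, and 0 changed sign. Most of the 217 were drops with an array left out, which by construction cannot move by as much as that SD. Under normexp and in the deposited values all 65 moved by more. Under quantile normalization 43 moved by more and 22 by less. Members with a further probe that kept its signal on DJ root hair3 went from 9 to 3 when that probe also had to lie within 1 of the lowest other array. Chosen after seeing the data, runs with up to 20 array genes between held 15 members missing from LJ root hair in place of 9, and runs read together with genes well above background but at least 3 lower held 17. No paired analysis was possible because the labelled groups share fewer than 2 replicate numbers.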
